A study of Mus musculus with 20 samples.

Results

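RNA of lymphocytes was measured in libraries made from sorted adult intestinal mesenchyme, through 9 listed genes of B cells, plasma cells and T cells: *Cd79a*, *Cd79b*, *Ms4a1*, *Pax5os*, *Cd3e*, *Cd3g*, *Jchain*, *Mzb1* and *Cd52*. The genes were chosen by their measured RNA levels in these same adult libraries, so their adult values and differences are given as a description, with no test. Of the 43280 genes listed in each count file, 8 members had a row. *Jchain* is listed under its older symbol *Igj*, and *Pax5os* had no row under its symbol or a synonym in the reference, so it is not analysed here.

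The study asked what Polycomb Repressive Complex 2 (PRC2) does in gut mesenchyme, using deletion of *Eed*, a core PRC2 subunit. The adult mice carried *Pdgfrb* Cre-ERT2/+ and Rosa26 mTmG and received tamoxifen. The control libraries (2) came from mice without floxed *Eed* and the libraries labelled *Eed* KO (2) from *Eed* fl/fl mice. Cre under the *Pdgfrb* promoter switches on membrane GFP in cells that have expressed *Pdgfrb*, such as pericytes and fibroblasts, and GFP+ cells were sorted from small intestine after villi and epithelium had been removed. The sort gate left out the smallest events and kept much of the outlying large ones. For reference, 8 embryonic libraries (2 each of control and *Eed* KO intestine and stomach, E13.5) came from GFP+ cells of Bapx1-cre;Rosa26mTmG embryos, in which Cre marks gut mesoderm. The labels give their strain as C57BL/6, while the methods describe the mouse lines as of mixed backgrounds. The *Eed* KO embryos carried Eedfl/fl in addition. The 2 libraries of a group are biological replicates according to the methods.

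A mature B cell reads antigen with a surface immunoglobulin that signals through *Cd79a* and *Cd79b*, which pair as 1 unit. Once activated it can become a plasma cell, which loses most of the B cell surface programme and secretes antibody, and in the gut this is mostly immunoglobulin A (IgA) joined into dimers by the J chain. T cells signal through the CD3 chains beside their own receptor. Both kinds of lymphocyte are abundant in the lamina propria, the connective tissue from which these mesenchymal cells were sorted.

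Each library held 11404712 to 15903642 gene counts in the adult set and 30236159 to 39606157 in the embryonic set. Levels are given as CPM, the share of a library's counts scaled to a fixed library size with TMM within the adult set and within the embryonic set, so they are compared only inside a set. Levels of different genes are compared as TPM, a share of transcripts that takes gene length into account. As a check of the labels, *Eed* stood at 29.7 and 33.4 CPM in the adult control libraries and at 25.7 and 25 CPM in those labelled *Eed* KO. The log2 fold change of *Eed* was -0.32 (SE 0.21, adjusted p = 0.32, edgeR's quasi-likelihood test), so a loss of *Eed* RNA was not called in the adult libraries. The paper also gives a deletion efficiency of *Eed* in isolated adult pericryptal cells, which was not used here. A call here and below meant an adjusted p under 0.05 and an absolute log2 fold change over 1. In the embryonic libraries the log2 fold change of *Eed* was -2.02 (SE 0.21, adjusted p = 0.0046) in intestine and -2.11 (SE 0.21, adjusted p = 0.0017) in stomach. The libraries labelled *Eed* KO also differed from the controls in the cells they reported: myeloid cell genes summed to 762 and 1121 CPM in the controls and 23263 and 22830 CPM in the libraries labelled *Eed* KO, and mesenchyme genes to 40083 and 41641 CPM against 21715 and 19973 CPM. In bulk libraries, fewer cells of a type and less RNA per cell cannot be told apart. The part that cell makeup had in the adult *Eed* values or in any difference below was not tested.

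The members did not differ in 1 direction between the adult groups. All 8 measured members passed the low-count filter. Both libraries labelled *Eed* KO lay above both controls for 3 members (*Cd79b*, *Cd3g* and *Cd52*), as they did for 32.3% of all 15039 genes tested, and below both for 4 members (*Cd79a*, *Ms4a1*, *Jchain* and *Mzb1*), as they did for 33% of all genes. For *Cd3e* the groups overlapped. The median log2 fold change was -0.65 over the members and 0.00 over all genes. Since the members were chosen from this contrast, nothing is read from these counts, and no test of a member in it is given. With total spike-in counts as the scale in place of TMM, the median of all genes shifted by -0.42, the calls over all genes went from 1856 higher and 1088 lower to 1154 higher and 1321 lower, and each of the 8 members kept its sign.

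**Figure D1:**
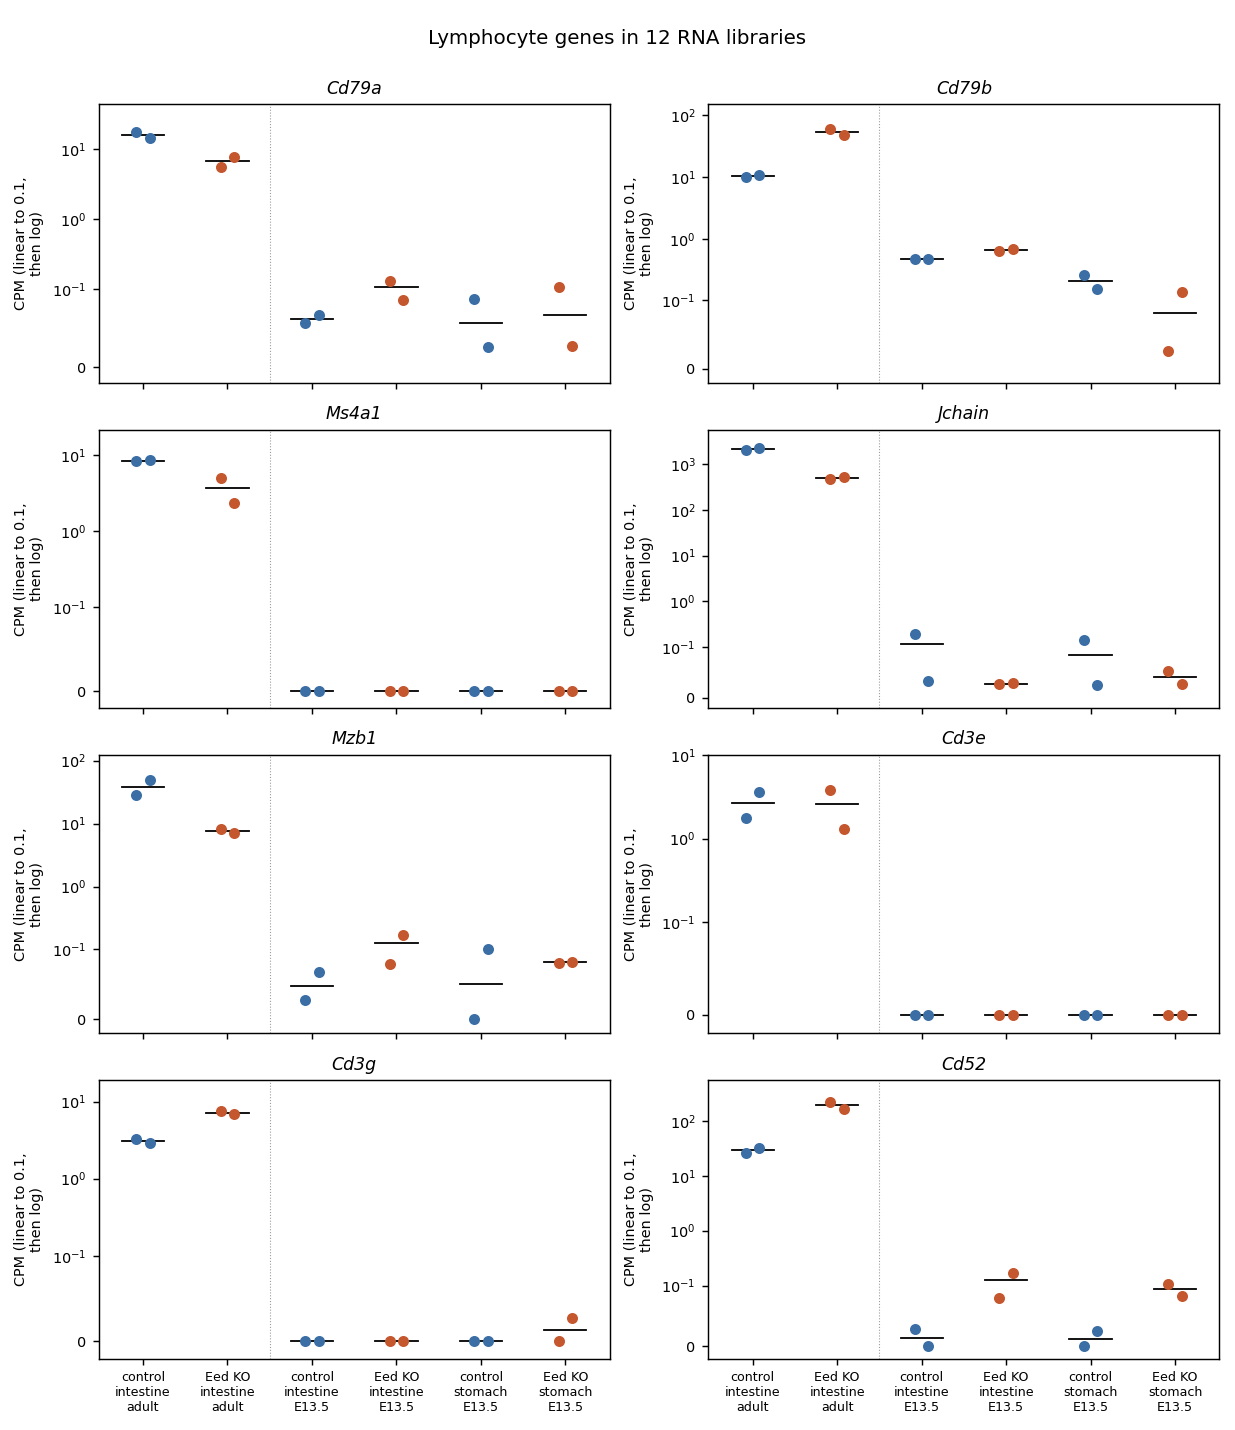
Level of each lymphocyte gene in the 12 RNA libraries: CPM on the vertical axis (linear up to 0.1, then logarithmic; TMM within the adult and within the embryonic set), the 6 groups on the horizontal axis, 1 point per library, a bar at the mean of 2. The adult libraries, left of the dotted line, hold all 8 genes, with *Cd79b*, *Cd3g* and *Cd52* higher and *Cd79a*, *Ms4a1*, *Jchain* and *Mzb1* lower in those labelled *Eed* KO, while the embryonic libraries stay under 1 CPM for each gene.

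The promoters of the members are shown to make plain which genes and which strands are meant, and because *Cd3e* and *Cd3g* lie close together on chromosome 9. Of the 9 members, 4 had an entry in the RefSeq promoter table for GRCm38.p6 (*Cd79a*, *Cd3e*, *Cd3g* and *Jchain*). The other 5 are *Cd79b*, *Ms4a1*, *Pax5os*, *Mzb1* and *Cd52*. The stretches below run 5′ to 3′ on the strand of the gene and end before the start of the gene in RefSeq and in the count files alike. Capitals mark the E box CAGGTG or, on the other strand, CACCTG. They lie at chr7:24897247-24897380 (plus strand) for *Cd79a*, chr9:45009612-45009861 (minus) for *Cd3e*, chr9:44980432-44980681 (minus) for *Cd3g* and chr5:88527898-88528147 (minus) for *Jchain*.
Cd79a: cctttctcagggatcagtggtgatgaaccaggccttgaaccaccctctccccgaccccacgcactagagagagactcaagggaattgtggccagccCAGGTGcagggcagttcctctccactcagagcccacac
Cd3e: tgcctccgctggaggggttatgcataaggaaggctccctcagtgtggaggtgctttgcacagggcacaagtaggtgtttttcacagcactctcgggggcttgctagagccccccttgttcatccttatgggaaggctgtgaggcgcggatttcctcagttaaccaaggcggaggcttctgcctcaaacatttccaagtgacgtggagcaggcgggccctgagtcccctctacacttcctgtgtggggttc
Cd3g: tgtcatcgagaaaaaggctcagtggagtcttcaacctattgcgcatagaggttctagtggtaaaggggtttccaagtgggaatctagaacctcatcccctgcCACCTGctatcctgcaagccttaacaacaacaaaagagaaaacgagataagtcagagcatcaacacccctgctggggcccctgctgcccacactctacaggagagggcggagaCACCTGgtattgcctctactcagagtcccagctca
Jchain: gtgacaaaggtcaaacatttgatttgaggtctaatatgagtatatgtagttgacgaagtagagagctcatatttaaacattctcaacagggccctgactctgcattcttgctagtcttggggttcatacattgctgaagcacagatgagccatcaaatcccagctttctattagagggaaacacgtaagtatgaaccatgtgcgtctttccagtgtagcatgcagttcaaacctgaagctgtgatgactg

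In the full promoter windows, from 250 bases before to 50 bases after the RefSeq start, 4 motifs were searched on both strands. The E box CAGGTG matched in all 4 windows, and it matched in 20.2% of all 32817 windows of that length. The match of *Cd79a* began 154 bases before the start, and those of *Cd3g* 148 and 35 bases before it. The matches of *Cd3e* and *Jchain* began at bases 4 and 6 of the transcript, outside the stretches printed. The octamer ATGCAAAT, the EBF-type motif CCCNNGGG and the TATA box TATAAA had no match in the 4 windows, and they matched in 1.74%, 13.7% and 13.6% of all windows. None of these motifs overlapped another in the 4 windows. The capitals are a description of letters, not of bound sites.

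*Cd79a* and *Cd79b* encode the 2 signalling chains of the B cell receptor, and their RNAs went opposite ways. *Cd79a* (chr7:24897381-24902197 in mm10, plus strand, 5 exon intervals) had 17.3 and 14.4 CPM in the controls and 5.62 and 7.81 CPM in the libraries labelled *Eed* KO. The log2 fold change of *Cd79a* was -1.23 (SE 0.32), 2.35-fold lower, and the groups did not overlap. *Cd79b* (chr11:106311341-106314762, minus strand, 6 exon intervals) had 10.1 and 10.8 CPM in the controls and 60.4 and 48.9 CPM in the libraries labelled *Eed* KO. The log2 fold change of *Cd79b* was 2.39 (SE 0.23), 5.22-fold higher, and both libraries labelled *Eed* KO stood far above both controls.

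The ratio of *Cd79a* to *Cd79b*, per length, was 1.68 and 1.31 in the control libraries. In the libraries labelled *Eed* KO it was 0.0914 and 0.157. So the chains were at like levels in the controls, while *Cd79b* RNA was several times as abundant as *Cd79a* RNA in both libraries labelled *Eed* KO. In TPM, *Cd79a* had a mean of 27.9 ± 4.09 in the controls and 7.94 ± 1.24 in the libraries labelled *Eed* KO (SD, n = 2 each). *Cd79b* had 18.7 ± 0.50 and 66.7 ± 14.9 TPM (SD, n = 2 each). Without *Eed* KO replicate 1 the log2 fold change of *Cd79a* was -1.04, and over the settings tried that of *Cd79b* ranged from 1.81 to 2.52.

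*Ms4a1* encodes CD20, a surface protein of B cells that plasma cells lack. *Ms4a1* (chr19:11249675-11266241, minus strand) had 8.20 and 8.55 CPM in the controls and 4.92 and 2.32 CPM in the libraries labelled *Eed* KO. Its log2 fold change was -1.22 (SE 0.47), close to that of *Cd79a*, and the groups did not overlap. The ratio of *Ms4a1* to *Cd79a* per length was 0.112 and 0.139 in the controls and 0.206 and 0.0699 in the libraries labelled *Eed* KO, so the ranges overlapped. Without *Eed* KO replicate 1 the log2 fold change of *Ms4a1* was -1.87, and without *Eed* KO replicate 2 it was -0.77.

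**Figure D2:**
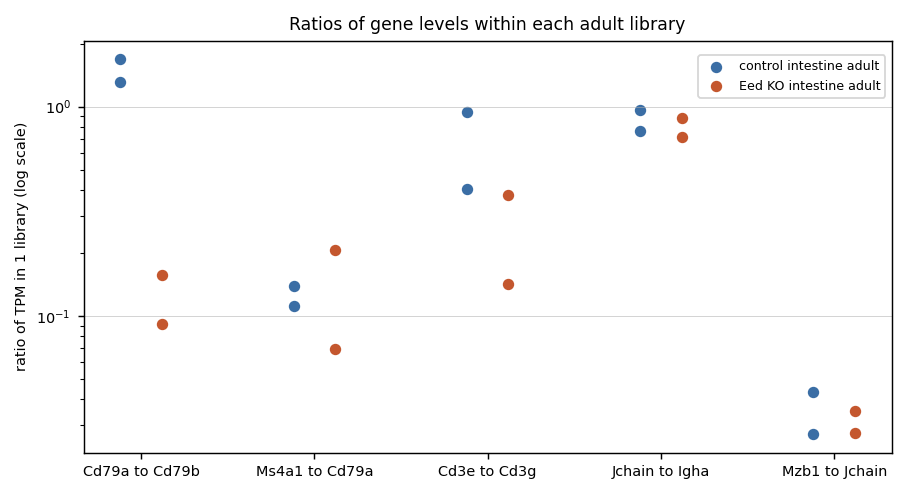
Ratios of TPM between lymphocyte genes within each adult library, on a logarithmic axis, 1 point per library, controls in blue and libraries labelled *Eed* KO in red. The *Cd79a* to *Cd79b* ratio is above 1 in both controls and at 0.0914 and 0.157 in the libraries labelled *Eed* KO, while the *Jchain* to *Igha* ratio stays between 0.719 and 0.962 in all 4.

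*Jchain*, which joins IgA and IgM units into polymers, was by far the most abundant member. *Jchain* (chr5:88520512-88527891, minus strand, 4 exon intervals) had 2071 and 2269 CPM in the controls and 477 and 522 CPM in the libraries labelled *Eed* KO. Its log2 fold change was -2.12 (SE 0.19), 4.34-fold lower. By counts *Jchain* ranked 30th and 29th of all genes in the control libraries and 323rd and 321st in those labelled *Eed* KO. It took 0.248% and 0.265% of all gene counts in the controls and 0.0416% and 0.0424% in the others.

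*Mzb1*, an endoplasmic reticulum protein that helps assemble and secrete antibody, followed *Jchain*. *Mzb1* (chromosome 18) had 28.2 and 49.2 CPM in the controls and 8.33 and 7.19 CPM in the libraries labelled *Eed* KO, with a log2 fold change of -2.32 (SE 0.33), 4.99-fold lower. Control replicate 2 was the high one, and without it the log2 fold change was -1.86. The ratio of *Mzb1* to *Jchain* per length was 0.0273 and 0.0434 in the controls and 0.0350 and 0.0276 in the libraries labelled *Eed* KO. That ratio therefore stayed within the spread of the controls in both, though each level differed over 4-fold between the groups.

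*Cd3e* and *Cd3g* encode chains of the CD3 complex, through which the T cell receptor signals. *Cd3g* (chr9:44969572-44980431, minus strand) had 3.22 and 2.87 CPM in the controls and 7.53 and 6.88 CPM in the libraries labelled *Eed* KO. Its log2 fold change was 1.24 (SE 0.40), and the groups did not overlap. *Cd3e* (chr9:44998743-45009590, minus strand), on the same strand, had 1.76 and 3.64 CPM in the controls and 3.81 and 1.31 CPM in the libraries labelled *Eed* KO. The *Cd3e* groups overlapped, and its log2 fold change was -0.09 (SE 0.70). The sign of the *Cd3e* difference changed with the setting, from -1.06 without *Eed* KO replicate 1 to 0.54 without control replicate 2. Counts of *Cd3e* were low in every library (24 and 52, then 38 and 17), and those of *Cd3g* were 44 and 41, then 75 and 89.

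*Cd52* encodes a short GPI-anchored surface protein of lymphocytes that monocytes and other leukocytes also make. *Cd52* (chr4:134082448-134095082, minus strand) had 25.7 and 32.6 CPM in the controls and 221 and 164 CPM in the libraries labelled *Eed* KO. With a log2 fold change of 2.72 (SE 0.25), 6.60-fold higher, it had the largest positive difference of the 8 members. The *Cd52* gene overlaps *Aim1l* on the other strand, and the adult libraries were not stranded. *Aim1l* had at most 60 counts in any of the 12 libraries, against 351 to 2204 counts of *Cd52* in the adult libraries.

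The order of the levels changed with the group. In the controls, per length, *Jchain* came first (3066 ± 137 TPM, SD, n = 2), then *Mzb1* (109 ± 39.8), *Cd52* (62.8 ± 9.27), *Cd79a* (27.9 ± 4.09), *Cd79b* (18.7 ± 0.50), *Cd3g* (7.31 ± 0.735), *Cd3e* (4.80 ± 2.29) and *Ms4a1* (3.47 ± 0.0334). Of neighbours in that order, *Cd3e* (3.18 and 6.42 TPM) and *Ms4a1* (3.45 and 3.49 TPM) overlapped, and the others did not. In the libraries labelled *Eed* KO the order was *Jchain* (477 ± 5.90), *Cd52* (284 ± 80.9), *Cd79b* (66.7 ± 14.9), *Mzb1* (15.0 ± 2.68), *Cd3g* (11.7 ± 1.63), *Cd79a* (7.94 ± 1.24), *Cd3e* (3.18 ± 2.37) and *Ms4a1* (1.04 ± 0.593). No neighbours overlapped in that order, although *Mzb1* (13.1 at the lowest) and *Cd3g* (12.9 at the highest) came close. *Mzb1* thus moved from the second place to the fourth, and *Cd79b* from the fifth to the third.

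**Figure D3:**
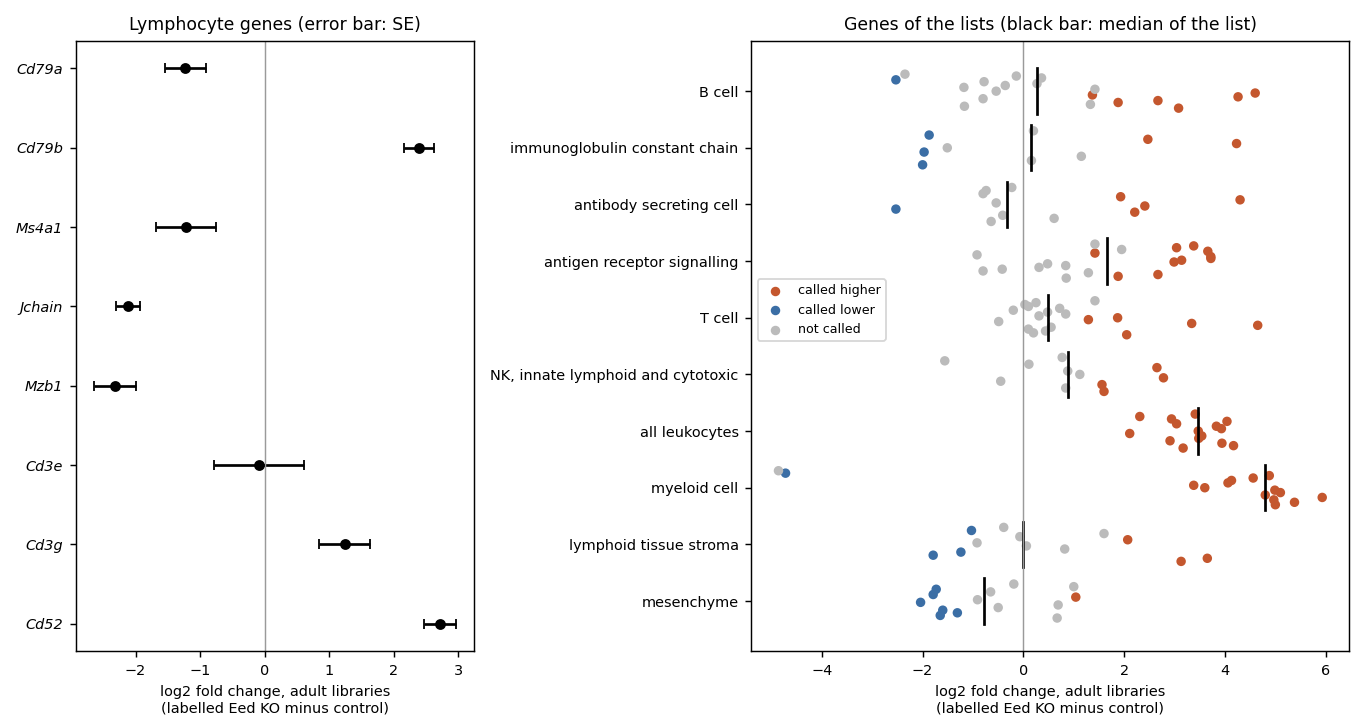
Log2 fold change between adult libraries labelled *Eed* KO and controls: on the left the 8 lymphocyte genes with SE, on the right each tested gene of 10 lists (1 point per gene, red called higher, blue called lower, grey not called) with the median of the list as a black bar. Members lie on both sides of 0, from -2.32 for *Mzb1* to 2.72 for *Cd52*, and the myeloid and all-leukocyte lists lie furthest right, with medians of 4.80 and 3.47.

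The other B cell genes were split between the directions too. Of the 20 genes of the B cell list, 19 were tested, 6 were called higher, beside 12.3% of all genes tested, and 1 lower, beside 7.23% of all genes. The median log2 fold change of the list was 0.27. The 6 called higher included *Cd72*, an inhibitory receptor of B cells that myeloid cells can also carry (17.8 and 16.8 CPM in the controls, 415 and 426 in the libraries labelled *Eed* KO), and *Bank1*, a scaffold of B cell receptor signalling (4.76 and 9.60 against 79.4 and 42.6). The gene called lower was *Pou2af1*, a coactivator that B and plasma cells need for antibody genes (3.66 and 5.75 against 0.502 and 1.08, log2 fold change -2.53, SE 0.63). *Ly6d* had 12.7 and 15.2 against 5.92 and 10.2 CPM and was not called. *Pax5*, the B cell master regulator, was under 0.5 CPM in all 4 adult libraries.

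The most abundant antibody genes stood lower, as *Jchain* and *Mzb1* did. Of 12 listed constant chain genes, 10 had a row and 9 were tested. Of these, 2 were called higher and 3 lower, beside 12.3% and 7.23% of all genes, with a median log2 fold change of 0.16. *Igha*, the heavy chain of IgA, had 4001 and 3470 CPM in the controls and 797 and 1067 CPM in the libraries labelled *Eed* KO (log2 fold change -2.0, SE 0.23). *Igkc*, the kappa light chain, had 2009 and 2008 against 513 and 587 CPM (-1.87, SE 0.19), and *Ighg2b* 53.6 and 30.3 against 11.4 and 9.97 CPM (-1.97, SE 0.32). The ratio of *Jchain* to *Igha* per length was 0.761 and 0.962 in the controls and 0.880 and 0.719 in the libraries labelled *Eed* KO, so the groups overlapped.

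*Ighm*, the heavy chain of IgM that naive B cells carry, went the other way, with 55.8 and 61.5 CPM in the controls and 366 and 286 in the libraries labelled *Eed* KO (log2 fold change 2.47, SE 0.22). That is close to the 2.39 of *Cd79b*. *Ighg3* was also called higher, on 1.41 and 15.0 CPM against 0.585 and 0.280 CPM, which rested mainly on *Eed* KO replicate 2. *Iglc2*, a lambda light chain, had 135 and 40.2 against 39.8 and 161 CPM and overlapped.

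The wider set of plasma cell genes was split between the directions. Of the 12 genes of the antibody secreting cell list, 4 were called higher (*Tnfrsf13b*, *Irf4*, *Prdm1* and *Slamf7*) and 1 lower (*Pou2af1*). Over all genes, 12.3% were called higher and 7.23% lower. Both libraries labelled *Eed* KO lay above both controls for 5 genes of the list and below both for 5. Over all genes these shares were 32.3% and 33%. The median log2 fold change of the list was -0.32. *Prdm1*, the repressor that sets the plasma cell state and acts in other cells too, had 4.24 and 3.43 CPM against 16.1 and 24.7. *Irf4*, a factor shared by plasma, T and myeloid cells, had 4.83 and 3.43 CPM against 17.2 and 21.0. *Slamf7*, a surface receptor of plasma and other immune cells, had 3.95 and 5.25 CPM against 63.7 and 118, and *Tnfrsf13b*, a receptor for B cell survival factors, had 6.37 and 8.20 against 32.5 and 23.3. The secretory genes that many cells use were not called: *Xbp1* (715 and 948 against 656 and 764 CPM), *Edem1* (244 and 184 against 297 and 358) and *Fkbp11* (22.5 and 19.5 against 12.8 and 18.6). Also not called, with a negative log2 fold change, were *Tnfrsf17* (-0.80, SE 0.62), *Txndc5* (-0.74, SE 0.20), *Derl3* (-0.64, SE 0.65) and *Sdc1* (-0.54, SE 0.24).

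Most T cell genes beside the members were not called. Of 23 genes, 19 were tested, and 5 were called higher (*Cd4*, *Cd6*, *Il7r*, *Icos* and *Ccr7*) and 0 lower, beside 12.3% and 7.23% of all genes. The median log2 fold change was 0.48. *Trbc2*, a constant segment of the T cell receptor, had 7.90 and 8.06 CPM in the controls and 8.43 and 10.6 in the libraries labelled *Eed* KO (log2 fold change 0.25, SE 0.32). *Cd4*, the coreceptor of helper T cells that mouse myeloid cells can also express, had 6.00 and 13.9 against 274 and 228 CPM (4.65, SE 0.42), apart from the other T cell genes. *Ccr7*, a homing receptor of T cells and dendritic cells, had 13.1 and 7.36 against 44.3 and 40.3 CPM. *Il7r*, the receptor for a lymphocyte survival cytokine, had 15.2 and 9.04 against 24.9 and 63.5 CPM, *Icos*, a costimulatory receptor, 7.83 and 9.39 against 15.6 and 26.6, and *Cd6* 0.146 and 0.911 against 7.83 and 3.17.

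Among 15 genes of natural killer, innate lymphoid and cytotoxic cells, 11 were tested, with a median log2 fold change of 0.88. Of these, 4 were called higher and 0 lower, beside 12.3% and 7.23% of all genes. The 4 were *Gzmb*, a cytotoxic granule protease (3.44 and 1.82 against 18.2 and 18.1 CPM), *Ccl5*, a chemokine (6.88 and 3.78 against 15.0 and 17.3), *Klrb1c*, the receptor NK1.1 (1.76 and 1.54 against 10.1 and 10.7), and *Gata3*, a factor of type 2 lymphoid cells (log2 fold change 1.56, SE 0.39). *Cd7*, a surface protein of T and NK cells, had 9.66 and 9.81 against 15.8 and 19.2 CPM and was not called. *Prf1*, the pore protein of cytotoxic cells, stayed at or under 1.17 CPM throughout, and *Eomes* was at 0 in all 4 adult libraries.

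Genes that carry the signal of *Cd79b* and of the CD3 chains into the cell stood higher on balance. All 20 genes of the antigen receptor signalling list were tested, and the median log2 fold change was 1.65. Of the 20, 10 were called higher and 0 lower, beside 12.3% and 7.23% of all genes. *Lcp2*, an adaptor of T cells and myeloid cells, had 43.0 and 42.9 CPM in the controls and 388 and 295 in the libraries labelled *Eed* KO (log2 fold change 2.99, SE 0.22). *Ptpn6*, a phosphatase of blood cells, had 8.64 and 17.4 against 114 and 101 CPM. *Bcl10*, which acts in many cells, had 49.3 and 56.8 against 82.2 and 110 CPM and was not called.

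Genes common to all leukocytes and genes of myeloid cells moved with *Cd79b* and *Cd52*. All 15 genes of the leukocyte list were called higher, beside 12.3% of all genes, with a median log2 fold change of 3.47. The list summed to 446 and 479 CPM in the controls and 5965 and 5460 CPM in the libraries labelled *Eed* KO. Its most abundant genes were *Cd53* (49.7 and 48.6 against 727 and 786 CPM), *Arhgdib* (60.1 and 63.1 against 535 and 573) and *Laptm5* (33.2 and 45.6 against 644 and 555). Of 15 myeloid genes, 13 were called higher and 1 lower, beside 12.3% and 7.23% of all genes, with a median of 4.80. *Lyz2*, the lysozyme of macrophages, had 391 and 463 against 8314 and 6614 CPM, and the complement genes *C1qa* (27.8 and 63.1 against 1797 and 2001) and *C1qb* (68.9 and 161 against 3591 and 3643), which tissue macrophages make, showed the same order. *S100a8*, a gene of neutrophils, was called lower on 19.2 and 1.40 against 0.1 and 0.618 CPM, where control replicate 1 was the high library. None of the 15 leukocyte genes was at 0 in an adult library, and 1 myeloid gene (*S100a9*) was at 0 in *Eed* KO replicate 1. The part of myeloid cells in the differences of *Cd79b*, *Cd52*, *Cd72* and *Cd4* was not tested.

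**Figure D4:**
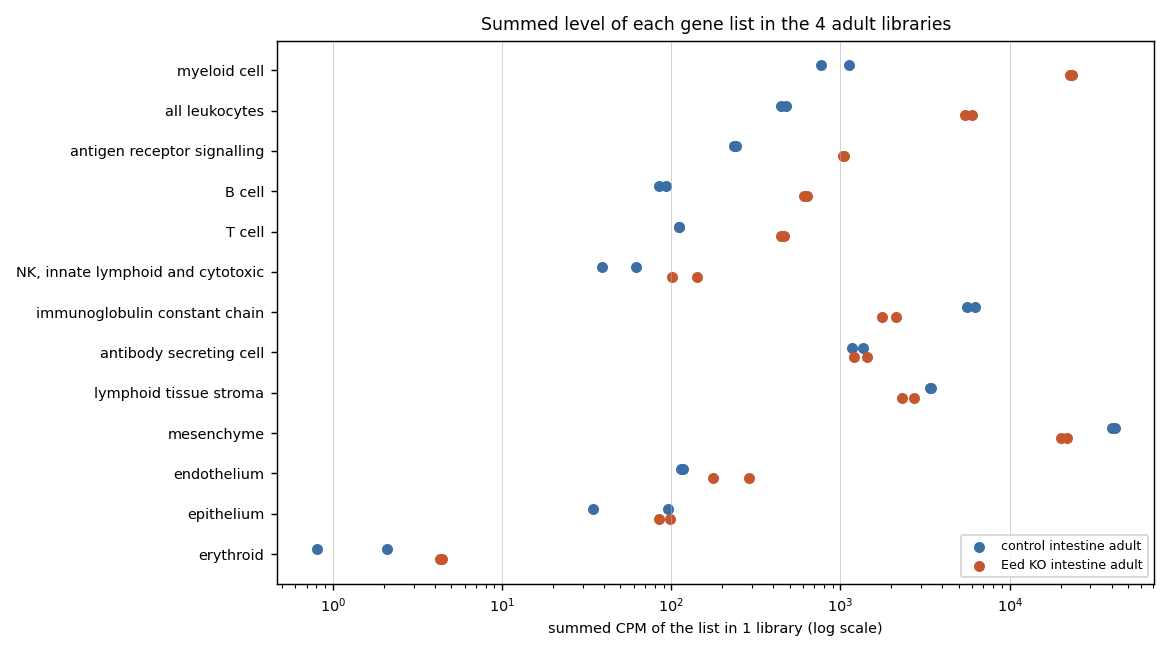
Summed CPM of each gene list in the 4 adult libraries (logarithmic horizontal axis, 1 point per library, controls in blue and libraries labelled *Eed* KO in red). The myeloid, all-leukocyte, antigen receptor signalling, B cell and T cell sums are higher in both libraries labelled *Eed* KO, and the immunoglobulin, lymphoid tissue stroma and mesenchyme sums are lower in both.

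Stroma that houses lymphocytes was split as well. Of 12 genes, 3 were called higher and 3 lower, beside 12.3% and 7.23% of all genes, with a median log2 fold change of -0.01. *Ccl21a*, which draws T cells and dendritic cells, had 49.0 and 52.3 against 790 and 485 CPM, *Ccl19*, which binds the same receptor, 6.37 and 3.64 against 59.3 and 28.6, and *Madcam1*, the gut homing address of lymphocytes, 5.49 and 5.18 against 18.5 and 26.2. *Cxcl13*, which draws B cells, had 247 and 158 against 67.8 and 103 CPM, *Cxcl12*, which retains plasma cells and others, 1919 and 1957 against 650 and 470, and *Tnfsf13b*, the B cell survival factor BAFF, 94.0 and 88.4 against 53.2 and 36.3. *Mfge8* had 552 and 691 against 577 and 605 CPM and was not called.

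The labelled tissue was checked against its own markers. The mesenchyme list had all 14 genes tested, with a median log2 fold change of -0.78. Of the 14, 1 was called higher (*Myh11*) and 6 lower, beside 12.3% and 7.23% of all genes. *Dcn*, a proteoglycan of fibroblasts, had 10960 and 12894 against 8064 and 8802 CPM, *Lum* 3127 and 3882 against 1917 and 1812, and *Rgs5*, a pericyte gene, 13184 and 11315 against 4333 and 3069. *Myh11*, the heavy chain of smooth muscle myosin, had 297 and 245 against 517 and 599 CPM. So mesenchymal genes were abundant in all 4 libraries, and several stood lower in those labelled *Eed* KO.

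Markers of other cell types summed to far less than the mesenchyme list, and their calls stand beside 12.3% of all genes called higher and 7.23% lower. They were not all lower than the members. Over the adult libraries the mean was 17.9 TPM for *Cd79a*, 9.52 for *Cd3g*, 3.99 for *Cd3e* and 2.25 for *Ms4a1*. It was 42.7 TPM for *Cd79b*, 62.1 for *Mzb1*, 173 for *Cd52* and 1772 for *Jchain*. The 12 epithelial genes summed to 34.7 and 95.9 CPM in the controls and 98 and 84.9 CPM in the libraries labelled *Eed* KO, with 0 of 10 tested called in either direction, and the highest were *Krt8*, *Fabp2* and *Krt19* (mean 23.0, 21.9 and 14.4 TPM). Endothelial genes summed to 114 and 117 against 176 and 289 CPM, and *Pecam1* (41.9 and 35.5 against 91.6 and 118 CPM), *Cldn5* (1.32 and 0.701 against 4.01 and 8.35) and *Lyve1* (2.05 and 3.50 against 11.9 and 26.5) were called higher of 10, while *Tek* was not. The 6 erythroid genes summed to 0.805 and 2.1 against 4.32 and 4.41 CPM, with *Hba-a1*, *Hba-a2* and *Hbb-bs* at a mean of at most 2.46 TPM. Of the erythroid genes only *Hba-a1* passed the filter, and it was not called.

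Genes with the most similar pattern over the 4 adult libraries were sought among 14465 genes with a mean of at least 1 CPM, by the root mean square distance of log2(CPM + 1) centred on the mean of each gene. Nearest to *Cd79a* were *Rapgef4* (0.039; 7.54 and 6.45 against 2.11 and 2.94 CPM), *Hoxa2* (0.045) and *Fbxl8* (0.046). Nearest to *Jchain* were *Gm12312* (0.050; 3.59 and 3.57 against 0 and 0.0773 CPM), *Gm13716* (0.079; 5.71 and 5.75 against 0.602 and 0.541) and *Enho* (0.096; 12.1 and 11.2 against 2.01 and 2.01 CPM). The 1 CPM added before the log shrinks differences at low levels. The distance to *Jchain*, which is far more abundant, therefore does not compare fold changes for such genes. Nearest to *Cd3e*, which varied within both groups, were *Dhrs13* (0.061), *Tcf19* (0.065) and *Pdk1* (0.065). None of the 9 is a gene of the lymphocyte lists, and with 4 libraries many genes share a profile.

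The embryonic libraries give a contrast that the choice of members did not use. They held almost no RNA of the members, with *Ms4a1* and *Cd3e* at 0 counts in all 8 libraries and *Cd3g* at 0 in 7 of 8. A count of 0 allows up to 3 counts, or 0.0765 to 0.101 CPM in these libraries. *Cd79a* had 1 to 5 counts, *Mzb1* 0 to 6, *Cd52* 0 to 6 and *Jchain* 1 to 7 in a library. *Cd79b* was the 1 member of 8 to pass the embryonic filter. The adult and embryonic libraries differ in age, Cre driver and library kit, which cannot be told apart, so their levels were not tested against each other.

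*Cd79b* had 17 and 14 counts (0.478 and 0.471 CPM) in control intestine and 24 and 24 counts (0.633 and 0.685 CPM) in *Eed* KO intestine. This is a log2 fold change of 0.47 (SE 0.46, adjusted p = 0.81, edgeR's quasi-likelihood test), and 2.38% of all 16218 genes were called higher and 0.228% lower in intestine. In stomach, *Cd79b* had 9 and 6 counts (0.261 and 0.153 CPM) in the controls and 1 and 5 counts (0.0268 and 0.137 CPM) in the *Eed* KO libraries. The log2 fold change was -1.29 (SE 0.68, adjusted p = 0.31), where 4.84% of genes were called higher and 0.808% lower. Neither contrast called *Cd79b*, and with at most 24 counts a library a change in the embryo was not detectable at this depth unless large. With total spike-in counts as the scale, the median of all genes shifted by 1.84 in intestine and 2.39 in stomach, and *Cd79b* changed by 2.30 in intestine, where it was then called, and by 1.12 in stomach, against its first direction. On that scale 13664 genes were called higher and 24 lower in intestine, and 15419 higher and 19 lower in stomach, against 386 and 37, and 785 and 131, with TMM. With a replicate block within each genotype, 762 genes were called higher and 92 lower in intestine and 1194 and 235 in stomach, and *Cd79b* (0.48 and -1.31) was called in neither. *Cd52* did not pass the filter: the intestine controls held 1 and 0 reads of it and the deleted intestines 3 and 6, and the stomachs 0 and 1 against 4 and 3.

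Most of the other list genes tested in the embryo were not called. Over all genes, 2.38% were called higher and 0.228% lower in intestine, and 4.84% higher and 0.808% lower in stomach. In intestine, no gene of the B cell, T cell, antigen receptor signalling or antibody secreting cell lists was called, of 2, 8, 14 and 8 tested. In stomach, no B cell or T cell gene was called, *Prdm1* of the antibody secreting cell list was called higher, as were *Syk* and *Ptpn6* of the signalling list, while *Prkcq* was called lower. Of the leukocyte list, 6 genes were tested in each organ; *Ikzf1*, a factor of lymphoid precursors, was called higher in both, and *Ptpn6* in stomach. Of 7 myeloid genes tested, 0 were called in intestine, while *Mpeg1* and *Mrc1* were called higher and *Lyz2* lower in stomach. Stromal genes called higher were *Icam1* in intestine and *Cxcl12*, *Il7*, *Tnfsf13b* and *Icam1* in stomach. Of 10 endothelial genes, *Cdh5*, *Flt1*, *Cldn5* and *Erg* were called higher in intestine and *Pecam1*, *Cdh5*, *Flt1*, *Emcn* and *Cldn5* in stomach.

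Open chromatin at the members was read from the embryonic ATAC peaks, of which there was 1 list per condition, called on pooled replicates. Within 1000 bp of the start of the gene, 1 of the 8 members had a peak in control intestine, 0 in control stomach, 2 in *Eed* KO intestine and 1 in *Eed* KO stomach. Over the 15038 genes tested in the adult libraries with a single locus, 82.3%, 82.6%, 83.5% and 83.2% had such a peak. The peaks were those of *Cd79b*, at chr11:106314430-106314668 in control intestine (2.68-fold over background, -log10 q of 2.51), chr11:106313602-106313948 in *Eed* KO intestine and chr11:106314032-106314574 in *Eed* KO stomach, and that of *Cd52* at chr4:134094912-134095222 in *Eed* KO intestine (2.79-fold, -log10 q of 2.12). These were weak, and with a -log10 q of at least 5 required no member had a peak in any condition, while 79.1% to 80.5% of the genes still did.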

How the data were processed

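RNA-seq libraries of sorted mesenchyme were analysed from the gene counts the authors deposited: 4 adult (unstranded, low-input kit) and 8 embryonic (stranded poly(A) kit), with spike-in RNA added. Per the labels and methods, reads were trimmed with Trimmomatic 0.32, aligned to mm10 with STAR 2.5.1b and counted over GENCODE genes with featureCounts (1.5.0 in the adult file headers; the labels and methods differ on versions). The deposited ATAC peaks, called by MACS2 2.1.2 on pooled replicates, carry a fold enrichment (a ratio) and a -log10 q per peak. The members and all lists were chosen with earlier results of these data known.

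Counts were fitted with edgeR 4.0.16 (TMM, filterByExpr, quasi-likelihood test, Benjamini-Hochberg adjustment over all genes tested) in R 4.3.3, the adult set alone (15039 genes) and the 8 embryonic libraries together (16218 genes). A call needed an adjusted p under 0.05 and an absolute log2 fold change over 1. The step was tested on simulated counts. Alternatives were DESeq2 1.42.0, DESeq2 size factors, spike-in totals, 1 RUVg factor from the spike-ins, no filter, each library left out, and a replicate block. The authors also normalized on spike-ins with RUV-seq, but the methods give no number of factors, so the RUVg setting here may differ from theirs. Deviations of same-numbered embryonic libraries from their group means correlated in all 6 pairs of the 4 groups (r from 0.153 to 0.789), so their numbers were taken to pair libraries, from the data alone. CPM are TMM-scaled, and TPM use the gene lengths in the files. The p-values rest on the spread within groups of 2 libraries, estimated over both adult groups or over all 4 embryonic groups. The limit of 3 counts given for a count of 0 covers counting error only.

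Genes named were the members, *Eed*, the 3 genes of each list with the highest adult mean TPM, list genes called where a list had 5 or fewer calls, and 3 genes nearest in profile to each of *Cd79a*, *Cd3e* and *Jchain*. *Pax5*, *Prf1*, *Eomes*, *S100a8*, *S100a9*, *Myh11*, *Syk*, *Tnfrsf17*, *Txndc5*, *Derl3*, *Sdc1* and the stromal genes called in adults were named after their values were seen. Some list genes are not reported here. Promoter sequences are from RefSeq, build GRCm38.p6.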

Additional observations from a re-analysis of the deposited data

Results flagged for a closer look

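*Cd79b* moved in opposite directions in every library of different contrasts. It was higher in both adult libraries labelled *Eed* KO (log2 fold change 2.39) and in both embryonic *Eed* KO intestine libraries (0.47), and lower in both embryonic *Eed* KO stomach libraries (-1.29). The difference between these contrasts was not tested, the embryonic values rest on 1 to 24 counts a library, and neither embryonic contrast called *Cd79b*.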

How the results depend on the processing

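Of the adult fold changes of the 8 members, 70 of the recomputed values moved by less than the spread between replicates and 18 by more. *Jchain* ranged from -2.61 to -2.04, *Mzb1* from -2.82 to -1.86, *Cd79a* from -1.65 to -1.04, *Cd79b* from 1.81 to 2.52, *Cd52* from 2.20 to 2.92, *Cd3g* from 0.62 to 1.32 and *Ms4a1* from -1.87 to -0.77, and *Cd3e* changed sign. Of the list counts, 321 stayed within 1.5 times and 39 did not.

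In the adult contrast, 1154 genes were called higher with spike-in totals and 724 lower with 1 RUVg factor, against 1856 and 1088, and without 1 library 1512 to 1838 higher and 787 to 1288 lower. In E13.5 intestine (386 higher, 37 lower), the calls were 13664 and 24 with spike-in totals, 167 and 60 with 1 RUVg factor, 734 and 66 without the filter, 762 and 92 with a replicate block, and 610 higher with DESeq2, and without 1 library 60 to 338 higher (60 and 86 without control replicates 1 and 2, 175 without *Eed* KO replicate 2) and 11 to 28 lower (14 and 11 without control replicates 1 and 2). In E13.5 stomach (785 higher, 131 lower) they were 15419 and 19 with spike-in totals, 256 higher with 1 RUVg factor, 198 lower without the filter, 1194 and 235 with a replicate block, and without 1 library 282 to 576 higher (329 and 282 without control replicates 1 and 2, 315 without *Eed* KO replicate 2) and 50 to 74 lower, each under the 131 by over 1.5 times. On spike-in totals *Cd79b* in stomach turned to 1.12 and *Eed* in stomach to 0.14, and *Eed* in intestine was -0.23 and not called. The causes were not tested.

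The embryonic replicate block above holds 1 term per genotype, so it pairs intestine with stomach and not *Eed* KO with control. With 1 term shared by the 4 groups, chosen after seeing the data, the calls were 575 and 56 in intestine and 1024 and 182 in stomach. Same-numbered adult libraries shared only a number (r = -0.082), and with the replicate block the adult contrast called 1780 genes higher and 1000 lower (*Cd79b* 2.38). Within 5000 bp of the gene start, 2 to 5 members had an ATAC peak in a condition, and with a -log10 q of at least 5 it was 0 in each.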

Other observations

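Variable segments of antibody genes, looked at after the values of the members were seen, were summed per library. The 172 heavy chain segments (*Ighv*) summed to 1313 and 1297 CPM in the adult controls and to 518 and 501 CPM in the libraries labelled *Eed* KO. The 104 kappa segments (*Igkv*) summed to 4467 and 4315 against 1208 and 1081 CPM, and both families were lower in both libraries labelled *Eed* KO. The 3 lambda segments (*Iglv*) summed to 351 and 395 against 213 and 466 CPM, where the groups overlapped, as they did for the lambda constant chain gene *Iglc2*. Counts were found on 138 and 142 of the heavy chain segments in the controls and on 109 and 106 in the libraries labelled *Eed* KO. In the 8 embryonic libraries the heavy chain segments had 0 counts and the kappa segments 0 to 3. All antibody genes together took 1.49% and 1.36% of gene counts in the adult controls and 0.322% and 0.340% in the libraries labelled *Eed* KO. Reads of similar segments can be split between them by the authors' counting, so only sums are given.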
